A study of Mus musculus with 30 samples.

Results

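The genes described here encode the proteasome: its core particle, its regulatory particle, its activators, its inhibitor and its assembly chaperones. Members were the entries of the expression table whose symbol starts with Psma, Psmb, Psmc, Psmd, Psme, Psmf or Psmg followed by a digit and names 1 gene only. The rule found 48 of 23303 entries and used no measured value. One of them, Psmc3ip, matched by name but encodes a partner of meiotic recombination proteins and not a subunit. Counts over 46 genes include it, and leaving it out changes each of them by at most this 1 gene. Another 2 entries joined a proteasome symbol to a neighboring gene and were outside the rule. The entry that joined Psmb5, the constitutive chymotrypsin-like subunit, with Mir686 ranged from 79.4 to 4606 FPKM (fragments counted for a gene, scaled to its transcript length and to the depth of the library), and the level of Psmb5 was therefore not read from it. The entry with Psme2b was 0.0670 to 0.533 FPKM in amygdala and 2.59 to 9.38 FPKM in blood.

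RNA sequencing of the amygdala and of trunk blood was performed in male C57BL/6J mice aged 2 to 3 months, each library made from a pool of 2 mice of 1 group. HC mice stayed in the home cage with handling, FC mice were killed 2 h after auditory fear conditioning, and Immo+FC mice had been immobilized on a board for 2 h a week before the same conditioning. From amygdala there were 6 HC libraries, 6 FC and 4 Immo+FC, and from blood 4 HC libraries, 5 FC and 5 Immo+FC. The paper describes both tissues as taken from the same animals, and most blood labels repeat the sample number of an amygdala library. Library numbers here do not match across tissues, since HC library 3 of blood carries the sample number of HC library 5 of amygdala. No group was immobilized without conditioning.

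The proteasome degrades proteins that carry ubiquitin chains. Its core is a stack of alpha and beta rings, with peptidase sites in a few beta subunits, and a regulatory particle of ATPases and non-ATPases unfolds substrates and feeds them in. Interferon and the identity of immune cells bring in alternative catalytic subunits, the immunosubunits Psmb8, Psmb9 and Psmb10, which yield peptides suited to class I presentation, while neurons use proteasomes in the turnover of synaptic proteins and in the storage of memory.

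Amygdala libraries held 23148078 to 31366290 sequences and blood libraries 9081977 to 25892322, with the lowest number in HC library 4. Summed levels of 10 neuron markers were 2259 to 2735 FPKM in amygdala and 10.8 to 65.1 FPKM in blood, and summed levels of 8 B cell markers were 1307 to 2942 FPKM in blood and at most 1.01 FPKM in amygdala. HC library 3 of blood stood apart: its summed level of 10 erythroid markers was 45563 FPKM, against 4789 to 14340 FPKM in the other 13 blood libraries, although Alas2, the first enzyme of heme synthesis in red cell precursors, was below 0.5 FPKM in every blood library. Its sum of 9 neutrophil markers was 29519 FPKM and its sum of 8 monocyte markers 11264 FPKM, against at most 5643 and 6276 FPKM in the other HC libraries. Its B cell sum was the lowest of all blood libraries, and its FPKM values added up to 1674854, against 664738 to 1002978 in the other blood libraries. Amygdala libraries differed in choroid plexus, the tissue that lines the ventricles, with summed levels of 7 markers of 2.75 to 1056 FPKM in HC, 3.34 to 910.6 FPKM in FC and 113 to 964 FPKM in Immo+FC. From the RNA of pooled tissue, fewer cells of a type and less RNA per cell cannot be told apart. For blood, the authors also compared the percent of monocytes, neutrophils and lymphocytes. They reported no difference between HC and FC, while Immo+FC held relatively more neutrophils and fewer lymphocytes than either. These cell counts were not used here. Results in blood that changed most without HC library 3 are also given without it.

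Of the 48 genes, 46 averaged 0.5 FPKM or more across the amygdala libraries, as did 46 across those of blood. The same pair stayed below this minimum in both tissues. Psma8, an alpha subunit of the testis, was at most 0.313 FPKM in amygdala and at most 0.481 FPKM in blood. Psmb11, the catalytic subunit of the thymus cortex, was at most 0.0769 FPKM in amygdala and was listed at 0 in all 14 blood libraries.

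Of the 4 genes that stood apart most in HC library 3 of blood, Psme4 had the largest excess, and its upstream window is not shown. Upstream windows are shown for the other 3, an activator, a ubiquitin receptor and the inhibitor. Each is the 250 bases before the RefSeq start site in build GRCm38.p6, read 5′ to 3′ on the strand of the gene, at chr11:101315963-101316212 on the plus strand for Psme3, chr3:95042615-95042864 on the minus strand for Psmd4 and chr2:151741311-151741560 on the minus strand for Psmf1. None overlaps an exon of GENCODE vM21, and capitals mark matches of the motifs named after them.
Psme3: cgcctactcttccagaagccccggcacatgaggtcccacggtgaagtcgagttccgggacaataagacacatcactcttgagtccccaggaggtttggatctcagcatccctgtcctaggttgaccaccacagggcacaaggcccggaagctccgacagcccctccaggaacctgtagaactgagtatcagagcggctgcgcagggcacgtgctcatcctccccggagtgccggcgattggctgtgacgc
Psmd4: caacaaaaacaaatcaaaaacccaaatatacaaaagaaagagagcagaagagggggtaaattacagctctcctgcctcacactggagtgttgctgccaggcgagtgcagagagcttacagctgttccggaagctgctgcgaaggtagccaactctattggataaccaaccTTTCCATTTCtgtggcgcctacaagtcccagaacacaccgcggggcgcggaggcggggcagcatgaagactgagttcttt
Psmf1: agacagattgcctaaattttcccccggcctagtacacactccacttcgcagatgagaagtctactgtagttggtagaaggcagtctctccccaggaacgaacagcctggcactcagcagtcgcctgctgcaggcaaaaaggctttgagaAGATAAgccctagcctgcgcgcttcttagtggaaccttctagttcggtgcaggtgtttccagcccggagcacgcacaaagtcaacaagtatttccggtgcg
RefSeq windows were found for 40 of the 48 genes. The interferon-stimulated response element-like motif, GAAA followed by any 2 bases and GAAA again, was searched on both strands like the other motifs and occurred in 3 of the 40 windows (Psmb3, Psmd4 and Psmd9), and in 3.04% of all 27025 promoter windows. The GATA-like motif AGATAA occurred in 2 (Psmd9 and Psmf1), against 10.3% of all windows. TGACNNNGC, like the antioxidant response element that Nfe2l1 and Nfe2l2 bind, occurred in 4 (Psmb6, Psmc6, Psmd9 and Psmd12), against 10.1%. The gamma-activated site-like motif TTCNNNGAA, which is its own reverse complement, occurred in 2 (Psmb8 and Psmg1), against 7.18%. No match of the 4 motifs overlapped another, and the Psme3 window held none of them.

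Which catalytic subunit transcripts the 2 tissues held was read from levels within a library. Only RNA was measured, so the subunits built into proteasomes were not seen. The authors processed the tissues separately, so each FPKM value was divided by the median of Psma1 to Psma7, the alpha ring, in the same library, and no test between tissues was made. Among amygdala libraries that median ran from 49.2 to 59.1 FPKM, and among blood libraries from 63.1 to 94.6 FPKM. Of 46 genes, 12 were higher in blood in every library, 16 were higher in amygdala in every library and 18 overlapped. Of the 7 alpha ring genes, which set the divisor, 6 were among the 18, and their overlap was in part built in. Of 10285 genes measured in both tissues, 20.3% were higher in blood in every library and 44.2% in amygdala, 64.5% in all, so the number of proteasome genes that separated the tissues was close to the background or below it, and the description rests on which genes they were.

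All 3 immunosubunits were higher in blood. Psmb8, the chymotrypsin-like immunosubunit, was at 0.0192 to 0.0361 of the alpha ring in amygdala and at 2.22 to 3.16 in blood, a ratio of medians of 100.9. Psmb9, the immunosubunit that takes the place of Psmb6, was at 0.00881 to 0.0250 in amygdala and at 1.55 to 2.42 in blood, a ratio of 106. Psmb10, which takes the place of Psmb7, was at 0.276 to 0.348 in amygdala and 1.17 to 1.51 in blood, a ratio of 4.56. Psmb8 and Psmb9 thus differed between the tissues far more than Psmb10 did.

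The values behind these ratios were as follows. Psmb8 levels in amygdala were 1.30 to 1.89 FPKM in HC (median 1.42), 1.01 to 1.78 FPKM in FC (median 1.33), and 1.73, 1.37, 1.57 and 1.57 FPKM in Immo+FC. Psmb8 levels in blood were 199, 188, 195 and 222 FPKM in HC, 216, 204, 208, 203 and 221 FPKM in FC, and 209, 236, 229, 226 and 191 FPKM in Immo+FC. The 3 groups overlapped in each tissue. Psmb9 levels in amygdala were 0.803 to 1.16 FPKM in HC (median 0.992), 0.891 to 1.32 FPKM in FC (median 1.08), and 0.918, 1.23, 0.434 and 0.607 FPKM in Immo+FC. Psmb9 levels in blood were 132, 152, 148 and 147 FPKM in HC, 143, 144, 139.6, 155 and 142 FPKM in FC, and 134, 150.2, 145, 164 and 127 FPKM in Immo+FC. The 2 lowest amygdala libraries for Psmb9 were both Immo+FC, and the blood groups overlapped. Psmb9 overlaps Tap1, the peptide transporter gene, on the opposite strand of chromosome 17, and the sources used here do not state that the counting used strand.

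Psmb10 levels in amygdala were 14.5 to 16.7 FPKM in HC (median 15.2), 14.7 to 18.1 FPKM in FC (median 16.3), and 16.4, 13.8, 14.9 and 15.3 FPKM in Immo+FC. Psmb10 levels in blood were 95.3, 88.2, 114 and 99.9 FPKM in HC, 102, 106, 104, 97.4 and 110.4 FPKM in FC, and 116, 116, 89.4, 111 and 94.5 FPKM in Immo+FC. Psmb10 was therefore the main immunosubunit transcript of the amygdala, per length, and the least abundant of the 3 in blood.

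The constitutive partners differed less between the tissues. Psmb6, the caspase-like subunit, had levels in amygdala of 58.3 to 63.2 FPKM in HC (median 61.1), 58.6 to 65.7 FPKM in FC (median 61.7), and 72.0, 58.9, 58.7 and 58.8 FPKM in Immo+FC. Its levels in blood were 73.6, 77.7, 81.1 and 90.5 FPKM in HC, 72.7, 81.5, 76.0, 62.1 and 73.5 FPKM in FC, and 87.1, 89.4, 62.5, 86.1 and 71.0 FPKM in Immo+FC. Relative to the alpha ring the libraries of the tissues overlapped for Psmb6. Psmb7, the trypsin-like subunit, had levels in amygdala of 99.9 to 103 FPKM in HC (median 102), 102 to 123 FPKM in FC (median 104), and 109, 96.8, 97.7 and 100.7 FPKM in Immo+FC. Its levels in blood were 75.1, 74.1, 74.8 and 63.9 FPKM in HC, 70.0, 75.7, 72.1, 74.6 and 87.3 FPKM in FC, and 84.3, 89.0, 66.5, 85.4 and 73.1 FPKM in Immo+FC. Relative to the alpha ring Psmb7 was lower in blood in every library, with a ratio of medians of 0.498. Psmb7 overlaps Nek6 and Gm13586 on the opposite strand, so its reads may include theirs.

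The ratio within a library, which no scaling of the library changes, set the transcripts of an immunosubunit and its constitutive partner in one number per pair. Psmb9 over Psmb6 was 0.0159 ± 0.00377 (SD, n = 16) in amygdala and 1.89 ± 0.255 (SD, n = 14) in blood. Psmb10 over Psmb7 was 0.151 ± 0.00975 (SD, n = 16) in amygdala and 1.36 ± 0.106 (SD, n = 14) in blood. Within blood, Psmb9 over Psmb6 was 1.80 ± 0.133 (SD, n = 4) in HC, 2.00 ± 0.291 (SD, n = 5) in FC and 1.85 ± 0.295 (SD, n = 5) in Immo+FC, and the ranges of the 3 groups overlapped. Within amygdala the ratio was 0.0164 ± 0.00213 (SD, n = 6) in HC, 0.0175 ± 0.00267 (SD, n = 6) in FC and 0.0128 ± 0.00578 (SD, n = 4) in Immo+FC, again with overlap.

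**Figure D1:**
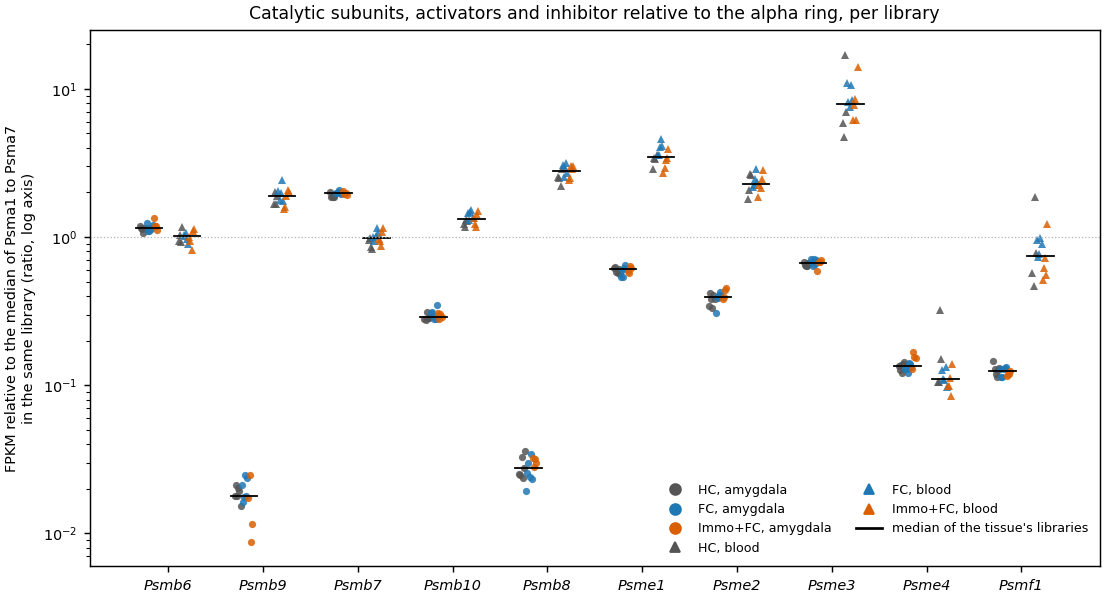
Level of each gene relative to the median of Psma1 to Psma7 in the same library, on a log axis, with 1 point per library (circles amygdala, triangles blood, color by group) and a line at the median of each tissue. Psmb8 and Psmb9 were near 0.0277 and 0.0180 in amygdala and near 2.79 and 1.90 in blood, Psme4 overlapped between the tissues, and HC library 3 is the highest blood point for Psme3, Psme4 and Psmf1.

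The activators other than Psme4 were also higher in blood. Psme1 and Psme2 encode the subunits of the interferon-inducible activator ring and were 5.77 and 5.81 times as high relative to the alpha ring in blood as in amygdala. Psme1 levels in amygdala were 29.6 to 34.4 FPKM in HC (median 31.9), 28.3 to 33.9 FPKM in FC (median 32.1), and 31.6, 28.1, 31.2 and 32.3 FPKM in Immo+FC. Psme1 levels in blood were 226, 258, 294 and 277 FPKM in HC, 250.005, 291, 287, 294 and 333 FPKM in FC, and 234, 277, 255, 268 and 247 FPKM in Immo+FC. The group values of Psme1 overlapped in each tissue. Psme2 levels in amygdala were 17.8 to 23.003 FPKM in HC (median 20.2), 16.1 to 23.1 FPKM in FC (median 21.6), and 20.5, 19.4, 21.6 and 23.7 FPKM in Immo+FC. Psme2 levels in blood were 141, 156, 234 and 202 FPKM in HC, 154, 180.5, 174, 186 and 191 FPKM in FC, and 161, 213, 165, 194 and 179 FPKM in Immo+FC. Psme1 over Psme2, the partners of one ring, ranged from 1.36 to 1.81 among amygdala libraries and from 1.26 to 1.75 among blood libraries, and unlike the catalytic pairs it overlapped between the tissues.

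Psme3, the nuclear activator, was 11.8 times as high relative to the alpha ring in blood. Among the 46 genes, which do not include Psmb5, it was the most abundant transcript there, per length. Psme3 levels in amygdala were 33.8 to 35.8 FPKM in HC (median 35.1), 34.4 to 37.9 FPKM in FC (median 37.3), and 31.6, 33.4, 33.6 and 37.0 FPKM in Immo+FC. Psme3 levels in blood were 461, 357, 1495 and 536 FPKM in HC, 766, 655, 538, 680.5 and 683 FPKM in FC, and 533, 737, 649, 487 and 883 FPKM in Immo+FC. HC library 3 of blood was above every other library, and the other 3 HC libraries were below all 5 FC libraries.

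Psme4, the large activator of nuclear and sperm proteasomes, did not separate the tissues. Its levels in amygdala were 6.69 to 7.48 FPKM in HC (median 7.14), 6.81 to 7.43 FPKM in FC (median 7.11), and 6.83, 8.19, 7.60 and 8.002 FPKM in Immo+FC. Its levels in blood were 8.23, 7.93, 28.3 and 11.7 FPKM in HC, 8.95, 8.93, 7.73, 8.51 and 7.89 FPKM in FC, and 8.51, 9.36, 8.51, 6.63 and 8.74 FPKM in Immo+FC. Outside HC libraries 3 and 4, the blood values lay within 6.63 to 9.36 FPKM.

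Psmf1, the inhibitor that competes with activators for the core, was 5.95 times as high relative to the alpha ring in blood. Its levels in amygdala were 6.25 to 7.55 FPKM in HC (median 6.84), 6.20 to 6.90 FPKM in FC (median 6.76), and 6.14, 5.90, 5.88 and 6.55 FPKM in Immo+FC. Its levels in blood were 44.9, 34.9, 164 and 60.1 FPKM in HC, 67.6, 59.1, 54.1, 63.0 and 73.1 FPKM in FC, and 44.2, 58.1, 55.3, 43.4 and 77.1 FPKM in Immo+FC. The 3 lowest amygdala libraries for Psmf1 were all Immo+FC, and HC library 3 was the highest of blood.

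The regulatory particle leaned the other way. All 6 ATPases, Psmc1 to Psmc6, which form the ring that unfolds substrates, were higher in amygdala relative to the alpha ring in every library, with ratios of medians of blood to amygdala of 0.369 for Psmc5 to 0.724 for Psmc4. Of 11 non-ATPases, 7 were higher in amygdala in every library, and the ratio was lowest for Psmd1, a large scaffold subunit that binds substrate receptors, at 0.249. Psmd1 overlaps Htr2b on the opposite strand and other genes on its own strand, so its reads may include theirs. Psmd8, Psmd11 and Psmd13 overlapped between the tissues, at ratios of 1.18, 0.931 and 1.01. Psmd4, a receptor for ubiquitin chains, was the only non-ATPase higher in blood in every library, at 3.05. Its blood values ran from 162 FPKM in HC library 2 to 541 FPKM in HC library 3. The base assembly chaperones Psmd5 and Psmd9 were higher in amygdala and Psmd10 overlapped.

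Among the remaining genes, Psma7, an alpha subunit, was higher in blood at a ratio of 1.66, and the other 6 alpha ring genes overlapped. These 7 genes set the divisor, which by itself draws their values together, so little can be read from their overlap. The non-catalytic beta subunits Psmb1 and Psmb3 were higher in blood at 1.33 and 1.62, and Psmb2 and Psmb4 overlapped. Psmg4, a chaperone of alpha ring assembly, was higher in blood at 3.18, and Psmg1, Psmg2 and Psmg3 overlapped. With the non-catalytic beta genes Psmb1 to Psmb4 as divisor instead of the alpha ring, 9 genes were higher in blood, all of them among the 12, and 27 were higher in amygdala, with all 16 among them. Psma7, Psmb1 and Psmb3 were the 3 of the 12 that were no longer higher in blood in every library. Psmb1 and Psmb3 are among the genes that set this divisor, so their loss was in part built in. With the median of all proteasome genes tested as divisor, 17 were higher in blood, the 12 among them, and 14 in amygdala, all of them among the 16. Without HC libraries 3 and 4 of blood, the same 12 genes were higher in blood and 17 were higher in amygdala. These last counts were chosen after the data were seen.

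The question of the next comparisons was whether conditioning, with or without earlier immobilization, moved proteasome genes within a tissue. In neither tissue did any of the 46 genes pass an adjusted p of 0.05 in limma with Benjamini-Hochberg adjustment over all genes. Their median spread within a group was below that of other genes of at least 5 FPKM, a set not matched to them for level. The median coefficient of variation of the 46 genes was 5.37% for HC, 5.92% for FC and 6.31% for Immo+FC amygdala, against 6.35%, 6.25% and 8.204% for the other genes of at least 5 FPKM. In blood it was 14.1% for HC, 8.63% for FC and 11.1% for Immo+FC, against 17.2%, 11.8% and 13.7%. Psmb7 varied least in HC amygdala, at 1.33%, and Psmf1 most in HC blood, at 78.6%.

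In FC compared with HC amygdala, 0 of 46 genes passed, while 0.0148% of all 13508 genes tested did. At an unadjusted p under 0.05 in limma, 1 gene was higher, against 6.59% of all genes, and 1 lower, against 6.48%. The lower gene was Psmc3ip, and without it 0 of 45 were lower. No member separated the groups, against 0.577% of all genes higher and 0.814% lower without overlap. The log2 difference was above 0 for 36 of 46 genes, 78.3%, against 56.5% of all genes, with a median of 0.03 against 0.01. Without Psmc3ip 36 of 45 were above 0, 80%. That excess leaned on one library. FC library 3 had the highest value of the 16 amygdala libraries for 23 of 46 members and for 8.66% of all genes, and without it 29 of 46 were above 0 with a median of 0.02. With quantile normalization 26 of 46 were above 0, with median-ratio scaling 33, and with a score of long transcripts as a covariate 22.

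The smallest p in this comparison belonged to Psmc3ip, the name match outside the proteasome. Its levels were 1.44 to 2.00 FPKM in HC (median 1.91) and 0.937 to 1.71 FPKM in FC (median 1.52), with a log2 difference of -0.32 ± 0.12 (SE) and an adjusted p of 0.268 in limma. Among subunits and chaperones, Psmd5, a chaperone of the regulatory particle base, was 17.4 to 19.9 FPKM in HC (median 18.3) and 18.9 to 20.3 FPKM in FC (median 19.8). Its log2 difference was 0.10 ± 0.04 (SE), with an adjusted p of 0.277 in limma. Psmd11, a lid subunit that stabilizes the whole complex, was 17.5 to 19.9 FPKM in HC (median 19.3) and 18.9 to 22.1 FPKM in FC (median 19.96), with a log2 difference of 0.09 ± 0.04 (SE) and an adjusted p of 0.398 in limma. The groups overlapped for all 3 genes.

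By role, the 6 ATPases were all above 0, with log2 differences of 0.03 to 0.11, and so were 10 of 11 non-ATPases and the 3 base chaperones. None passed the test. The 7 alpha ring genes lay between -0.01 and 0.06. The data bounded each gene closely, since all 46 intervals of 95% lay within a 1.5-fold change and 42 within a 1.2-fold change in either direction.

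In Immo+FC compared with FC amygdala, 0 of 46 genes passed, while 0.0222% of all genes did. At an unadjusted p under 0.05 in limma, 3 were lower, against 6.49% of all genes, and 0 higher, against 3.94%. No member separated the groups, against 0.896% of all genes higher and 1.38% lower. The log2 difference was below 0 for 36 of 46 genes with a median of -0.03, against a median of -0.02 and 40.0% above 0 for all genes. Without FC library 3, 29 of 46 were below 0 and the median was -0.01, and the same values to 2 decimals were found without Immo+FC library 3. Without Immo+FC library 1, 40 of 46 were below 0 and the median was -0.06, and with array weights 38 were below 0 and it was -0.05. Without FC library 5, 39 were below 0 with a median of -0.04. Under median-ratio scaling 29 were below 0, under quantile normalization 19, and with the score of long transcripts 23. Of 10 neuron markers 10 were below 0 in the same comparison, with a median log2 difference of -0.10, on summed levels of 2436 to 2735 FPKM in FC and 2259 to 2645 FPKM in Immo+FC. Of 6 oligodendrocyte markers 6 were below 0, with a median of -0.06, and of 7 choroid plexus markers 7 were above 0, with a median of 0.99. None of these markers passed, and the part of these cell types in the result was not tested.

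The 3 genes with the smallest p were Psme3, Psmb9 and Psmf1, all lower in Immo+FC in mean. For Psme3 the mean was 33.9 ± 2.23 FPKM (SD, n = 4) in Immo+FC and 36.9 ± 1.26 FPKM (SD, n = 6) in FC, a log2 difference of -0.12 ± 0.04 (SE) with an adjusted p of 0.310 in limma. For Psmb9 it was 0.797 ± 0.350 FPKM (SD, n = 4) and 1.09 ± 0.164 FPKM (SD, n = 6), a log2 difference of -0.48 ± 0.20 (SE) with an adjusted p of 0.394 in limma. Immo+FC library 3, at 0.434 FPKM, set much of the size for Psmb9, and without it the log2 difference was -0.26. For Psmf1 the mean was 6.12 ± 0.311 FPKM (SD, n = 4) and 6.69 ± 0.253 FPKM (SD, n = 6), a log2 difference of -0.13 ± 0.06 (SE) with an adjusted p of 0.426 in limma.

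In Immo+FC compared with HC amygdala, 0 of 46 genes passed, while 0.2% of all genes did. At an unadjusted p under 0.05 in limma Psmf1 alone was lower, against 7.73% of all genes, and 0 were higher, against 5.34%. No member separated the groups, against 1.13% of all genes higher and 1.44% lower. Differences lay on both sides of 0, with 26 genes above and 20 below and a median of 0.00, where 45.4% of all genes were above 0. This balance depended on Immo+FC library 1, since without it 14 were above and 32 below 0, with a median of -0.02. That library was the highest of the 16 for 9 of 46 members, 19.6%, and for 11.8% of all genes. It was the lowest for 3 members, 6.52%, and for 22.6% of all genes. The split was also 14 and 32 with array weights. Psmf1 had a mean of 6.12 ± 0.311 FPKM (SD, n = 4) in Immo+FC and 6.82 ± 0.465 FPKM (SD, n = 6) in HC, a log2 difference of -0.15 ± 0.06 (SE) with an adjusted p of 0.252 in limma. The next smallest p-values were those of Psmb9, with a log2 difference of -0.37 ± 0.20 (SE) and an adjusted p of 0.448 in limma, and of Psme4, with 0.10 ± 0.05 (SE) and 0.474. Without Immo+FC library 3 the Psmb9 difference was -0.15, and without library 2 that of Psme4 was 0.06. The comparisons of Immo+FC with FC and with HC share the Immo+FC libraries. In each of them 45 of 46 intervals lay within a 1.5-fold change, all but that of Psmb9.

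**Figure D2:**
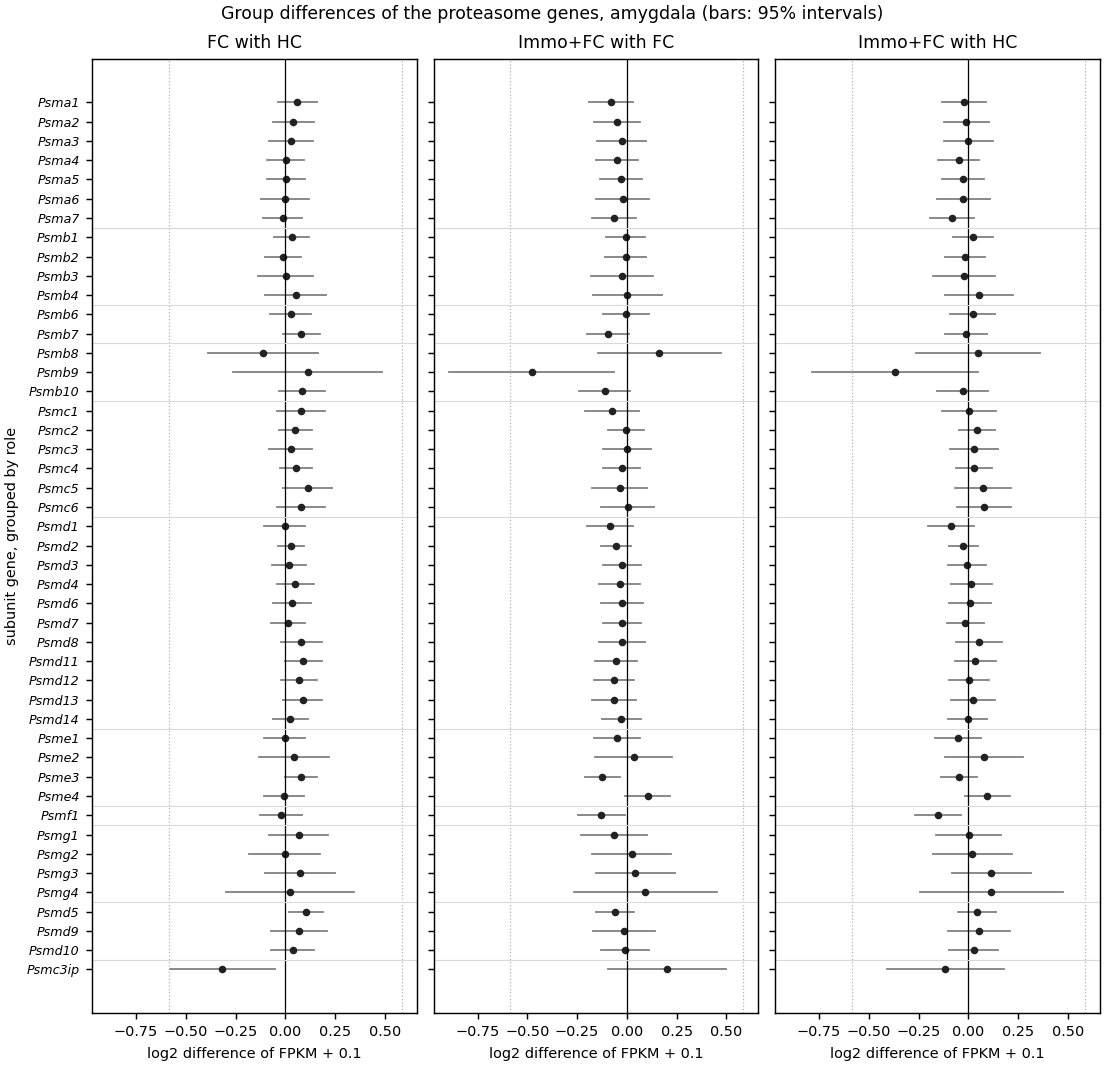
Log2 difference of FPKM + 0.1 for 46 genes in the 3 amygdala comparisons, grouped by role, with points for the limma estimate, bars for 95% intervals, a solid line at 0 and dotted lines at a 1.5-fold change. Most estimates lie within 0.1 of 0, and Psmb9 has the widest interval.

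In FC compared with HC blood, 0 of 46 genes passed, while 0.0343% of all 11656 genes tested did. At an unadjusted p under 0.05 in limma, 1 gene was higher, against 4.34% of all genes, and 0 lower, against 5.87%. No member separated the groups, against 1.65% of all genes higher and 2.23% lower. Of 46 genes, 23 were above 0 and 23 below, and the median log2 difference was 0.00, where 47.7% of all genes were above 0. Without HC library 3, 34 of 46 were above 0 and the median was 0.05. Without HC libraries 3 and 4, the one that stood apart and the shallowest, 42 of 46 were above 0 and the median was 0.13. With a neuron marker score as a covariate 35 were above 0 with a median of 0.10, with a neutrophil score 17 with -0.05, and with array weights 36 with 0.08. Summed levels of neuron markers were 21.8 to 65.1 FPKM in HC and 11.2 to 25.3 FPKM in FC blood. Of 8 T cell markers 8 were above 0, with a median log2 difference of 0.43, and of 7 NK cell markers 7 were above 0, with a median of 0.44 and 5 without overlap. Summed neutrophil levels were 8386 to 20755 FPKM in FC, against 4482 to 5643 FPKM in HC libraries 1, 2 and 4. In HC library 3 the sum was 29519 FPKM, above every FC library. Of 9 neutrophil markers 7 were above 0 and 2 below. The part of these cells was not tested. All 7 alpha ring genes were below 0, between -0.24 and -0.05, but without HC library 3 only 4 were, between -0.12 and 0.07 for the 7, and the 3 immunosubunits were above 0 with all libraries, between 0.00 and 0.07. Psmd11 had the smallest p, with levels of 24.8, 23.4, 25.1 and 20.02 FPKM in HC and 29.3, 29.1, 26.2, 29.6 and 24.2 FPKM in FC, and 1 FC library lay within the HC range. Its log2 difference was 0.25 ± 0.10 (SE) with an adjusted p of 0.382 in limma.

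Psmd9, the base chaperone, was 7.02, 8.28, 7.82 and 7.63 FPKM in HC and 6.40, 5.75, 6.07, 7.12 and 7.69 FPKM in FC, with a log2 difference of -0.22 ± 0.11 (SE) and an adjusted p of 0.507 in limma. Psmc6, an ATPase, was 31.6, 31.4, 42.7 and 39.4 FPKM in HC and 29.9, 33.5, 33.2, 29.8 and 29.6 FPKM in FC, with a log2 difference of -0.21 ± 0.10 (SE) and an adjusted p of 0.510 in limma. Both pairs of groups overlapped. The 2 highest HC values of Psmc6 came from libraries 3 and 4, and without these libraries the Psmc6 difference was -0.02, a setting chosen after the data were seen.

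In Immo+FC compared with FC blood, 0 of 46 genes passed, as did 0.0% of all genes. At an unadjusted p under 0.05 in limma 0 members were higher, against 5.79% of all genes, and 0 lower, against 3.75%. No member separated the groups, against 0.695% of all genes higher and 0.884% lower. Of 46 genes 31 were above 0, the 7 alpha ring genes among them, and the median log2 difference was 0.03, against -0.01 for all genes and 47.3% of them above 0. This direction turned in several settings. With a neutrophil score as a covariate 13 were above and 33 below 0, with a median of -0.05, and with a B cell score 19 and 27, with -0.02. With quantile normalization it was 18 and 28, with -0.02, and without Immo+FC library 2 it was 21 and 25, with -0.01. Psmd6, a lid subunit, was 28.5, 32.1, 28.1, 29.7 and 33.2 FPKM in FC and 40.5, 38.1, 32.7, 34.2 and 31.2 FPKM in Immo+FC, and the groups overlapped. Its log2 difference was 0.22 ± 0.11 (SE) with an adjusted p of 0.549 in limma. For Psmc6 the log2 difference was 0.17 ± 0.10 (SE) with an adjusted p of 0.574 in limma, and for Psme1 it was -0.18 ± 0.10 (SE) with 0.576. Summed levels of 9 neutrophil markers were 8386 to 20755 FPKM in FC and 12185 to 44000 FPKM in Immo+FC. All 9 neutrophil and 8 monocyte markers were above 0, with medians of 0.79 and 0.81, and all 8 B cell markers below 0, with a median of -0.41. The part of these cells in the values was not tested.

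In Immo+FC compared with HC blood, 0 of 46 genes passed, while 0.0686% of all genes did. At an unadjusted p under 0.05 in limma, 1 gene was higher, against 7.14% of all genes, and 1 lower, against 8.12%. These genes also separated the groups. Psmd11 was higher without overlap, as were 1.84% of all genes, and Psmd9 was lower without overlap, as were 2.77%, so 1 gene in each direction of 46 was near the background. Psmd11 levels were 29.4, 32.2, 28.4, 26.2 and 28.2 FPKM in Immo+FC, above the 20.02 to 25.1 FPKM of HC, with a log2 difference of 0.31 ± 0.10 (SE) and an adjusted p of 0.141 in limma. Psmd9 levels were 5.71, 6.66, 6.97, 6.96 and 5.99 FPKM in Immo+FC, below the 7.02 to 8.28 FPKM of HC, with a log2 difference of -0.25 ± 0.11 (SE) and an adjusted p of 0.285 in limma. Psmd9 overlaps Hpd, Gm26745 and Gm43409 on the opposite strand of chromosome 5, so its reads may include theirs. FC and Immo+FC blood are compared with the same HC libraries for both genes. In the same comparison 9 of 9 neutrophil markers were above 0, with a median log2 difference of 1.46 and 7 at an unadjusted p under 0.05 in limma, and 9 of 9 neuron markers were below 0, with a median of -2.15. Their part in the values of Psmd11 and Psmd9 was not tested.

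The third gene, Psme4, had a mean of 8.35 ± 1.02 FPKM (SD, n = 5) in Immo+FC and 14.04 ± 9.69 FPKM (SD, n = 4) in HC, with a log2 difference of -0.54 ± 0.28 (SE) and an adjusted p of 0.374 in limma. This rested on HC library 3. Without it the difference was -0.14, and without HC libraries 3 and 4 it was 0.04. Of the 46 genes 25 were above 0, against 47.0% of all genes, with a median of 0.02. Without HC library 3 it was 38 of 46 with a median of 0.11, and with a neutrophil score as a covariate 8 of 46 with -0.12. Without HC libraries 3 and 4 it was 43 of 46 with a median of 0.17, a setting chosen after the data were seen.

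**Figure D3:**
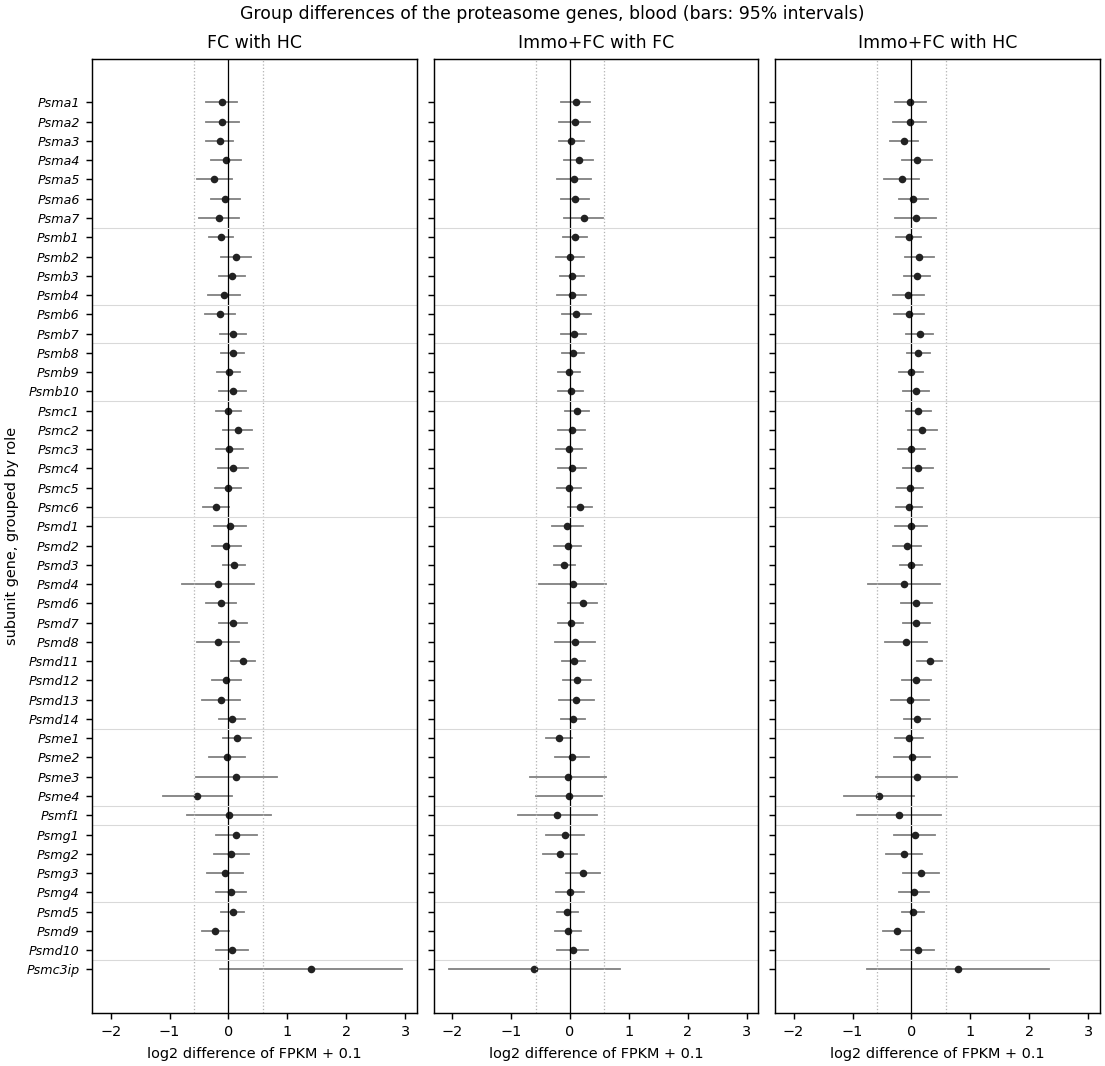
Log2 difference of FPKM + 0.1 for 46 genes in the 3 blood comparisons, drawn as for amygdala. Psmd4, Psme3, Psme4, Psmf1 and Psmc3ip have the widest intervals, and Psmd11 lies above 0 and Psmd9 below 0 in Immo+FC with HC.

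Intervals were wider in blood than in amygdala, with a median distance from estimate to bound of 0.251 on the log2 scale in FC compared with HC, against 0.103 in amygdala. Of 46 intervals, 41 lay within a 1.5-fold change in FC compared with HC, 42 in Immo+FC compared with FC and 41 in Immo+FC compared with HC. The genes outside were Psmd4, Psme3, Psmf1 and Psmc3ip in all 3 comparisons and Psme4 in those with HC. For Psme3 in FC compared with HC blood the interval ran from -0.56 to 0.82 on the log2 scale. Without HC library 3 it ran from 0.16 to 0.98, around a difference of 0.57 with an adjusted p of 0.322 in limma. Psmf1 was then at 0.47, with an interval of 0.05 to 0.89, and Psmd4 at 0.17, with -0.27 to 0.62. Without this library 42, 45 and 42 of 46 intervals lay within a 1.5-fold change in the 3 comparisons, and 0 genes passed. Psmc3ip was listed at 0 in HC library 3, and 0.894 to 3.25 FPKM in the other blood libraries.

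HC library 3 of blood had the highest value of the 14 libraries for 17 of 46 members, 37.0%, and for 21.02% of all genes. Psme4 was 28.3 FPKM there against 6.63 to 11.7 FPKM in the others, 3.33 times their median. Psmf1 was 164 FPKM against 34.9 to 77.1 FPKM, 2.83 times the median. Psmd4 was 541 FPKM against 162 to 306 FPKM, 2.53 times, and Psme3 was 1495 FPKM against 357 to 883 FPKM, 2.304 times. These were the 4 largest excesses among the 46 genes, and the median over members was 1.13 times. Psmd8, Psma5, Psma7 and Psma2 followed, at 1.47 to 1.67 times. Psma1 was 87.8 FPKM in this library and 60.6 to 94.6 FPKM in the others, within their range. HC library 2 had the lowest erythroid sum, 4789 FPKM, and also the lowest Psme3, Psmd4 and Psmf1 of blood. HC library 4 had the next highest erythroid sum after HC library 3, 14340 FPKM. Its Psme3, at 536 FPKM, was below every FC library, its Psmd4 was 302 FPKM and its Psmf1 60.1 FPKM. HC library 3 also stood apart in neutrophil, monocyte and B cell markers and in its FPKM total. The part of any of these in the levels was not tested.

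**Figure D4:**
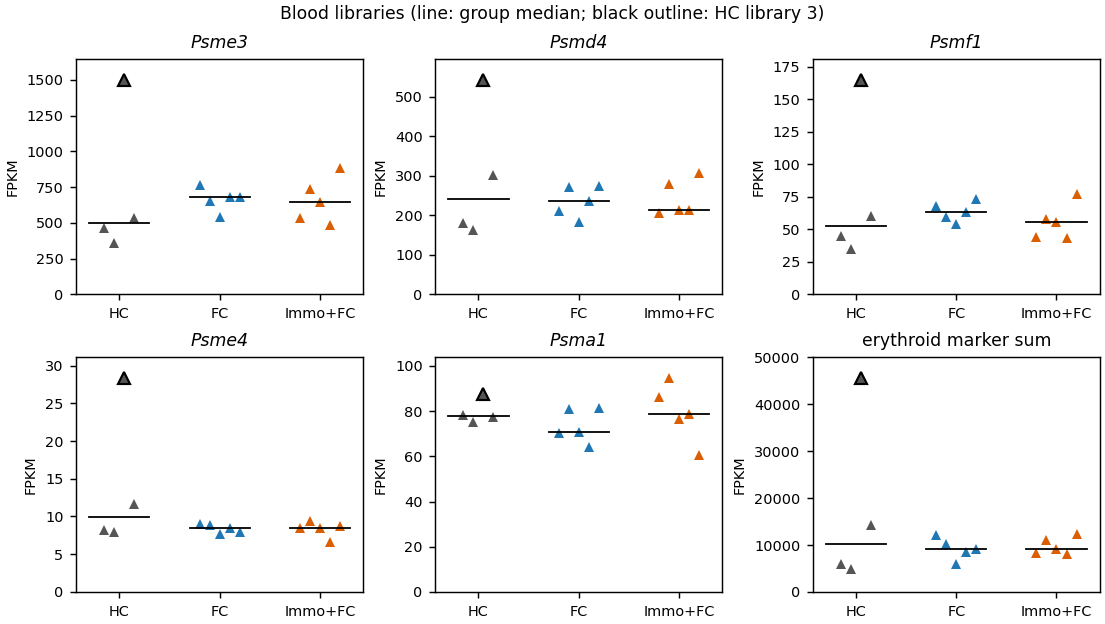
FPKM of 5 proteasome genes and the summed FPKM of 10 erythroid markers in the 14 blood libraries by group, on linear axes from 0, with lines at group medians and HC library 3 outlined in black. That library is the highest for Psme3, Psmd4, Psmf1, Psme4 and the erythroid sum, and within the range of the others for Psma1.

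The genes around the proteasome were described from lists of the same pathway. Of 16 subunits and partners with other symbols, which include the chaperone Pomp and the receptor Adrm1, 0 passed in any comparison. In amygdala 14 of 16 were above 0 in FC compared with HC, against 56.5% of all genes. In Immo+FC compared with FC 14 of 16 were below 0, where 40.0% of all genes were above 0. These comparisons share the FC libraries, and the counts of this list were not followed through the alternative fits. Ubqln1, a shuttle of ubiquitinated proteins, was 46.6 ± 1.33 FPKM (SD, n = 6) in FC and 43.4 ± 1.22 FPKM (SD, n = 6) in HC, with an adjusted p of 0.150 in limma. Pomp was at 96.6 to 101.1 FPKM in the group means of amygdala and at 132 to 159 FPKM in those of blood.

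Of the regulators of proteasome genes, 7 were tested in amygdala and 8 in blood, and 0 passed. Nfe2l1, the factor that raises subunit transcription when proteasomes fail, was 73.0 FPKM in HC, 74.7 FPKM in FC and 73.5 FPKM in Immo+FC amygdala in mean. Nfe2l2, its relative in the oxidative stress response, was 4.14 ± 0.0364 FPKM (SD, n = 4) in Immo+FC and 3.37 ± 0.458 FPKM (SD, n = 6) in HC amygdala, a log2 difference of 0.30 ± 0.08 (SE) with an adjusted p of 0.120 in limma. Of 9 genes of ubiquitin supply and p97, 0 passed in any comparison. The one with the smallest p was Uba6, an activating enzyme of ubiquitin, with a log2 difference of 0.31 ± 0.08 (SE) and an adjusted p of 0.106 in limma in Immo+FC compared with HC amygdala.

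Class I antigen presentation, which uses peptides of the immunoproteasome, had 9 genes tested in amygdala and 10 in blood, and 0 passed. In FC compared with HC amygdala 5 of 9 were higher at an unadjusted p under 0.05 in limma, where 6.59% of all genes were higher. They were led by Pdia3, with a log2 difference of 0.20 ± 0.05 (SE) and an adjusted p of 0.121, and Tap2, with 0.19 ± 0.06 (SE) and 0.155. Tap1, the neighbor of Psmb9, was not among them, at -0.12 ± 0.14 (SE) and an adjusted p in limma of 0.766.

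Of 11 interferon response genes tested in amygdala, 1 passed, and it rose in Immo+FC compared with HC, where 0.2% of all genes passed. Irf9, the DNA-binding part of the interferon-activated complex, was 4.13 ± 0.317 FPKM (SD, n = 4) in Immo+FC and 2.81 ± 0.352 FPKM (SD, n = 6) in HC, a log2 difference of 0.55 ± 0.09 (SE) with an adjusted p of 0.0206 in limma. The call held in 20 of 30 alternatives, with log2 differences of 0.43 to 0.60 and adjusted p-values of 0.00471 to 0.436. It was lost with the replicate block (adjusted p = 0.161 in limma), with only the 2 groups in the fit (0.130), and when HC library 1, 2 or 5 or Immo+FC library 1, 2 or 3 was left out, at adjusted p-values of 0.0564 to 0.0916. It was also lost without Immo+FC libraries 1 and 2 (0.436) and without HC libraries 1 and 2 (0.206). Choroid plexus markers were above 0 for 7 of 7 in this comparison, with a median log2 difference of 1.14, and their part was not tested. Bst2, an interferon-induced membrane protein, had a log2 difference of 0.61 ± 0.13 (SE) and an adjusted p of 0.0717. In the same comparison the interferon-inducible subunits differed by -0.37 for Psmb9, 0.05 for Psmb8 and -0.03 for Psmb10 on the log2 scale, and none passed. In blood 16 interferon response genes were tested and 0 passed.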

How the data were processed

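Gene levels were the FPKM values deposited by the authors, who aligned paired-end reads to mm10 with STAR 2.3 and estimated FPKM with Cufflinks and Cuffdiff 2.1.1, each tissue separately. Blood RNA had globin transcripts depleted, and the use of strand was not given in the sources used here. Depth was taken from the deposited counts of sequences per library and the percent mapped uniquely, as the authors gave them, and no read counts per gene were used. All columns were mapped to samples (0 unmapped). In each tissue, log2(FPKM + 0.1) of genes averaging 0.5 FPKM or more was fitted over the 3 groups with limma 3.58.1 in R 4.3.3 (empirical Bayes with trend), with Benjamini-Hochberg adjustment over all genes and a threshold of 0.05. Fold changes are on this scale, which understates changes of low genes. The p-values measure the spread between pools. The procedure was tested on simulated data. Values per library were given for catalytic pairs, activators, the inhibitor and the 3 genes with the smallest p per comparison, and up to 4 genes were named per pathway list. The members and lists were chosen with earlier results of these data known. Positions follow GENCODE vM21 on GRCm38. Alternatives varied the pseudocount, filter, scaling, weights, covariates, block and libraries.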

Additional observations from a re-analysis of the deposited data

Results flagged for a closer look

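In 96 combinations of a gene and a group, over 16 genes named in the comparisons, 8 had a library far from the others of its group by Dixon's criterion, which chance alone meets in about 1 of 20. In blood, Psme3 was 1495 FPKM in HC library 3, against 357 to 536 FPKM in the others. Psmb7 was lowest in HC library 4 at 63.9 FPKM, against 74.1 to 75.1 FPKM, and this was the shallowest library. Psmb9 was 155 FPKM in FC library 4, against 139.6 to 144 FPKM. In amygdala, Psmb6 was 72.0 FPKM in Immo+FC library 1, against 58.7 to 58.9 FPKM. FC library 1 was lowest for both subunits of one activator ring, with Psme1 at 28.3 FPKM against 31.8 to 33.9 FPKM and Psme2 at 16.1 FPKM against 20.97 to 23.1 FPKM. Psme3 was lowest in FC library 5 at 34.4 FPKM, against 36.7 to 37.9 FPKM, and Psmf1 in FC library 2 at 6.20 FPKM, against 6.69 to 6.90 FPKM.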

How the results depend on the processing

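No proteasome gene passed the threshold in any of 180 alternative fits. The median log2 difference of the 46 genes in Immo+FC compared with HC blood was -0.12 with a neutrophil score as a covariate, and 0.17 without HC libraries 3 and 4, which also gave 0.13 in FC compared with HC blood. That setting turned Psme4 in Immo+FC compared with HC blood to 0.037 (limma adjusted p = 0.898). Dividing by Psmb1 to Psmb4 gave 27 genes higher in amygdala. Of these divisor genes, Psmb1 and Psmb3 were themselves higher in blood relative to the alpha ring, at 1.33 and 1.62, so this shift was in part built in. The cause of the other changes was not tested. With each library left out in turn, the medians ranged from 0.02 to 0.05 in FC compared with HC amygdala and from -0.03 to 0.11 in Immo+FC compared with HC blood. With the replicate number as a block, 0 proteasome genes passed. Samples with the same number did not deviate together, with correlations of -0.26 to 0.31 in amygdala and -0.25 to 0.21 in blood, so the numbers were not taken to pair the samples. Over all genes the block gave 160, 62 and 0 calls in amygdala, against 2, 3 and 27 without it, and 2, 0 and 8 in blood, against 4, 0 and 8. Intervals were wider in blood than in amygdala, and the part of depth and of single libraries in this was not separated.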
